A study of Zea mays with 9 samples.

Results

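Counts were followed for 5 maize genes of seed maturation, out of 46430 gene identifiers in the deposited tables. They are lec1 (Zm00001d017898), wri1a (Zm00001d005016), dgat1-2 (Zm00001d036982), glb1 (Zm00001d033447) and dhn1, also called rab17 (Zm00001d037894). The members were chosen by identifier, for what the genes are known to do in aleurone and embryo. Earlier results of these data were known when they were chosen, so the choice was not blind. The names came with that list of identifiers. The deposited tables hold identifiers alone. A table of RefSeq genes (Zm-B73-REFERENCE-NAM-5.0) tied 0 of the 44146 identifiers that start with Zm00001d to an entry. That table does list genes known as lec1, dgat1-2, glb1 and dhn1, but the step from name to identifier was not checked by it.

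Endosperm of the B73 inbred was sampled 19 days after pollination (DAP) from field-grown, selfed plants. WT endosperm (titled B73) was set against endosperm homozygous for thk1_iso15 or for thk1_iso17, with 3 biological replicates of each genotype. The gene thk1, thick aleurone1, encodes a NOT1 protein, the scaffold of a complex that shortens the poly(A) tails of mRNAs, and its mutants form extra aleurone layers. The labels do not say how many kernels or plants made up a replicate, how either allele arose, or whether replicates share an ear. The p-values therefore weigh a difference against the spread between these samples only. If replicates share an ear, that spread may be too small and the p-values too low. Poly(A) RNA was extracted from whole dissected endosperm, in which more cells of a type and more RNA per cell cannot be told apart. Other marker genes of embryo, aleurone, starchy endosperm or pericarp were not used here, because none could be tied to an identifier, so the labelled tissue was not checked against markers. The level of thk1 itself was not analysed here for the same reason.

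Aleurone and embryo are the tissues of the maize kernel that fill with oil and protein and survive drying, while the starchy endosperm fills with starch and zeins and dies. The oil is triacylglycerol, made in a pathway whose genes are switched on by regulators of the maturation programme. Globulins are the main storage proteins of the maize embryo and are also found in aleurone. Dehydrins accumulate late, under abscisic acid, and protect the cell as it loses water.

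Gene counts per library ranged from 21871601 in thk1_iso15 replicate 1 to 76651742 in thk1_iso17 replicate 1. TMM scaling factors, which correct for a few abundant genes taking up the reads, were 0.785 to 0.926 in WT and 0.946 to 1.21 in the mutants. Levels below are CPM, in which each library's counts are brought to the same total with these factors. They are not divided by transcript length, so they compare libraries for 1 gene and not 1 gene with another. Changes were tested with edgeR's quasi-likelihood test over 23529 genes with enough counts, and those with a Benjamini-Hochberg adjusted p under 0.05 were called. The filter kept 4 of the 5 members, and lec1 fell below it.

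Each of the 4 tested members had a higher mean level in both mutants than in WT. In thk1_iso15 all 4 rose, where 8.66% of all tested genes were called higher and 15.5% were called in either direction. In thk1_iso17 wri1a, dgat1-2 and glb1 rose, where 7.96% of genes were called higher and 14.2% in either direction, and dhn1 missed the threshold. For each of the 4 members every one of the 6 mutant libraries lay above every WT library, a pattern that 12.4% of all tested genes showed. In thk1_iso15, glb1 remained called without any single WT library, but the number called fell to 2 without WT replicate 1, to 2 without WT replicate 2 and to 1 without WT replicate 3. Calls over all genes fell in these fits too, to 5.95%, 7.62% and 7.41% of genes tested. In thk1_iso17 the number of members called was 3, 4 and 2 without WT replicate 1, 2 and 3, where 5.69%, 7.26% and 6.35% of all genes were called. It was 2 without thk1_iso17 replicate 1, where 4.91% were called.

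**Figure D1:**
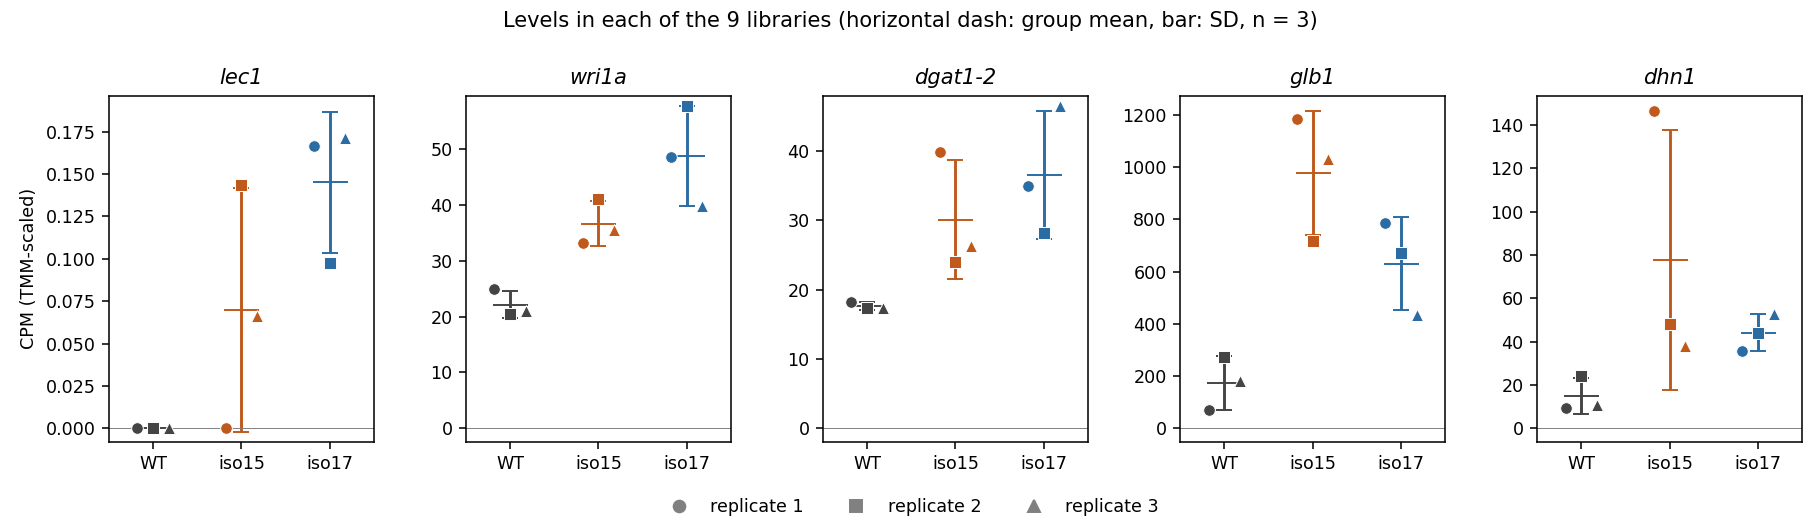
TMM-scaled CPM (vertical axes, each with its own scale) of the 5 genes in WT, thk1_iso15 and thk1_iso17 endosperm. Symbols are single libraries, dashes are group means and bars are SD (n = 3); for wri1a, dgat1-2, glb1 and dhn1 no mutant library reaches down to the WT range, and the lec1 panel ends below 0.2 CPM.

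The regulators come first. The gene lec1 encodes the B subunit of a nuclear factor Y transcription factor, an early switch of the embryo maturation programme. It had 0 counts in WT replicates 1, 2 and 3. In thk1_iso15 it had 0, 6 and 3 counts in replicates 1, 2 and 3, and in thk1_iso17 it had 15, 5 and 10. Reads were thus found in 5 of 6 mutant libraries and in no WT library. How many other genes with few counts showed the same pattern was not counted. Expression of lec1 is best known from the embryo. The part of embryo tissue in these counts was not tested, for lec1 or for the other members. The mutant library without a read, thk1_iso15 replicate 1, was also the shallowest. With 3 counts as the floor, a count of 0 there allows up to 0.137 CPM of all gene counts.

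Summed over replicates and taken per total of gene counts, lec1 had 0 of 149852906 counts in WT. A floor of 3 counts there is 0.0200 CPM, and the upper end of the 95% exact Poisson interval was 0.0246 CPM. The gene took 9 of 109808344 in thk1_iso15, or 0.0820 CPM (95% exact Poisson interval 0.0375 to 0.156). In thk1_iso17 it took 30 of 174595263, or 0.172 CPM (0.116 to 0.245). With 3 counts assigned to WT as a whole as the floor, its estimate was 4.09-fold the floor in thk1_iso15 and 8.58-fold in thk1_iso17. These folds leave out the counting error of the mutant counts, so they are not lower bounds. Replicate 2 held 6 of the 9 counts of thk1_iso15, and without it 3 counts were left, or 0.0430 CPM (95% exact Poisson interval 0.00887 to 0.126). The intervals and the WT floor cover counting error only.

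The difference in lec1 did not hold up against the spread between libraries in every test. For all 6 mutant libraries against WT, a two-sided exact permutation test gave p = 0.0714, where 0.0119 is the smallest possible. The values permuted were counts per total of gene counts, without TMM factors. For thk1_iso17 alone the exact permutation p was 0.1, the smallest that 3 against 3 allows, and for thk1_iso15 alone it was 0.4. With no filter on low counts, edgeR gave lec1 an adjusted p of 0.0478 in thk1_iso17, 0.104 in thk1_iso15 and 0.0476 for both alleles together. Of the 33773 genes in that fit, 3360, 3625 and 4898 were called in these comparisons, in the same order. DESeq2 gave lec1 unadjusted p-values of 0.00872, 0.0416 and 0.0108 in this order, and no adjusted p, since its own filter removed the gene.

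The gene wri1a encodes an AP2-type transcription factor that switches on genes of glycolysis and fatty acid synthesis in oil-storing tissue. Its level was 24.9, 20.4 and 21.0 CPM in WT replicates 1, 2 and 3. In thk1_iso15 it was 33.2, 41.0 and 35.6 CPM, and in thk1_iso17 it was 48.6, 57.6 and 39.7 CPM. All 6 mutant libraries lay above the 3 WT libraries, with the lowest mutant library 1.33-fold above the highest WT library. The mean rose from 22.1 ± 2.44 CPM in WT to 36.6 ± 3.99 in thk1_iso15 and 48.7 ± 8.94 in thk1_iso17 (SD, n = 3 each).

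For wri1a this was a log2 fold change of 0.73 in thk1_iso15 (SE 0.16, edgeR adjusted p = 0.0161), a 1.66-fold rise with a 95% interval of 1.29 to 2.13. In thk1_iso17 it was 1.14 (SE 0.16, edgeR adjusted p = 0.00283), a 2.20-fold rise with an interval of 1.71 to 2.83. The thk1_iso17 call held without any single library. The thk1_iso15 call was lost without WT replicate 2 (log2 fold change 0.69, edgeR adjusted p = 0.0577), WT replicate 3 (0.69, 0.0575) or thk1_iso15 replicate 2 (0.64, 0.0646).

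The oil enzyme was next. The gene dgat1-2 encodes an acyl-CoA:diacylglycerol acyltransferase, which adds the last fatty acid to make triacylglycerol, and in maize it is known as a major locus for oil content. Its level was 18.3, 17.3 and 17.4 CPM in WT replicates 1, 2 and 3, the narrowest spread in WT among the 4 tested members (coefficient of variation 3.04%). In thk1_iso15 it was 39.9, 24.0 and 26.3 CPM, and in thk1_iso17 it was 34.9, 28.1 and 46.5 CPM. The WT and mutant libraries did not overlap, and each mutant group spread by 1.65- or 1.66-fold between its lowest and highest library.

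The mean of dgat1-2 was 17.6 ± 0.536 CPM in WT, 30.1 ± 8.59 in thk1_iso15 and 36.5 ± 9.27 in thk1_iso17 (SD, n = 3 each). This gave a log2 fold change of 0.77 in thk1_iso15 (SE 0.22, edgeR adjusted p = 0.0401) and 1.05 in thk1_iso17 (SE 0.22, edgeR adjusted p = 0.0130). As folds these were 1.70 (95% interval 1.21 to 2.38) and 2.07 (1.48 to 2.90). In thk1_iso17 the call held without any single library, with edgeR adjusted p between 0.00771 and 0.0492.

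Among the calls against WT, that of dgat1-2 in thk1_iso15 had the highest adjusted p. By voom its adjusted p was 0.0693. It was lost in edgeR without WT replicate 1 (adjusted p = 0.103), WT replicate 2 (0.105), WT replicate 3 (0.11) or thk1_iso17 replicate 1 (0.0597), while the log2 fold change stayed between 0.75 and 0.79. Without thk1_iso15 replicate 1, the highest library of that group, the log2 fold change was 0.51 (edgeR adjusted p = 0.139).

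Among the 4 tested members, the stored protein and the dehydrin had the larger log2 fold changes against WT. The gene glb1 encodes a vicilin-type globulin, a storage protein that is abundant in the maize embryo. As for lec1, the part of embryo tissue in the counts of glb1 was not tested. Its level was 69.1, 274 and 179 CPM in WT replicates 1, 2 and 3, from 1433, 15513 and 8893 counts. In thk1_iso15 it was 1186, 717 and 1031 CPM, and in thk1_iso17 it was 788, 669.8 and 436 CPM. WT libraries differed among themselves by up to 3.96-fold, and still the lowest mutant library stood 1.59-fold above the highest WT library.

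The mean of glb1 was 174 ± 102 CPM in WT, 978 ± 239 in thk1_iso15 and 631 ± 179.5 in thk1_iso17 (SD, n = 3 each). Its log2 fold change in thk1_iso15 was 2.49 (SE 0.43, edgeR adjusted p = 0.00555), a 5.61-fold rise with a 95% interval of 2.92 to 10.8. In thk1_iso17 it was 1.86 (SE 0.42, edgeR adjusted p = 0.0168), a 3.62-fold rise with an interval of 1.91 to 6.86. The thk1_iso15 call held without any single library. The thk1_iso17 call was lost without WT replicate 3 (log2 fold change 1.88, edgeR adjusted p = 0.0605) and without thk1_iso17 replicate 1 (1.67, 0.0635).

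The gene dhn1 encodes a dehydrin that responds to abscisic acid and to drying. Its level was 9.49, 24.2 and 10.9 CPM in WT replicates 1, 2 and 3. In thk1_iso15 it was 146, 48.1 and 37.8 CPM, and in thk1_iso17 it was 35.6, 43.9 and 52.7 CPM. Replicate 1 of thk1_iso15 stood far above the other libraries, while the other 5 mutant libraries lay between 35.6 and 52.7 CPM. Even so the lowest mutant library was 1.47-fold above the highest WT library.

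The mean of dhn1 was 14.9 ± 8.10 CPM in WT, 77.4 ± 59.96 in thk1_iso15 and 44.1 ± 8.54 in thk1_iso17 (SD, n = 3 each). Its rise in thk1_iso15 was 2.37 on the log2 scale (SE 0.50, edgeR adjusted p = 0.0130), a 5.16-fold rise with a 95% interval of 2.40 to 11.1. Without thk1_iso15 replicate 1 the log2 fold change was 1.52 (edgeR adjusted p = 0.0293). The call was lost without WT replicate 1 (log2 fold change 2.13, edgeR adjusted p = 0.0594) or WT replicate 3 (2.18, 0.0551).

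In thk1_iso17 the log2 fold change of dhn1 was 1.56 (SE 0.49, edgeR adjusted p = 0.0565), a fold of 2.94 with a 95% interval of 1.39 to 6.22, so it did not pass. All 9 libraries share 1 estimate of spread for the gene in this fit. With only WT and thk1_iso17 in the fit the log2 fold change was also 1.56 and the adjusted p was 0.0208. With thk1_iso15 replicate 1 left out, these were 1.56 and 0.0155. Of 18 alternatives 5 passed for this comparison. Over all of them the edgeR, voom or DESeq2 adjusted p ran from 0.0155 to 0.179, the highest without WT replicate 1. Among those that did not pass were DESeq2 (adjusted p = 0.0568) and voom (adjusted p = 0.0535).

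**Figure D2:**
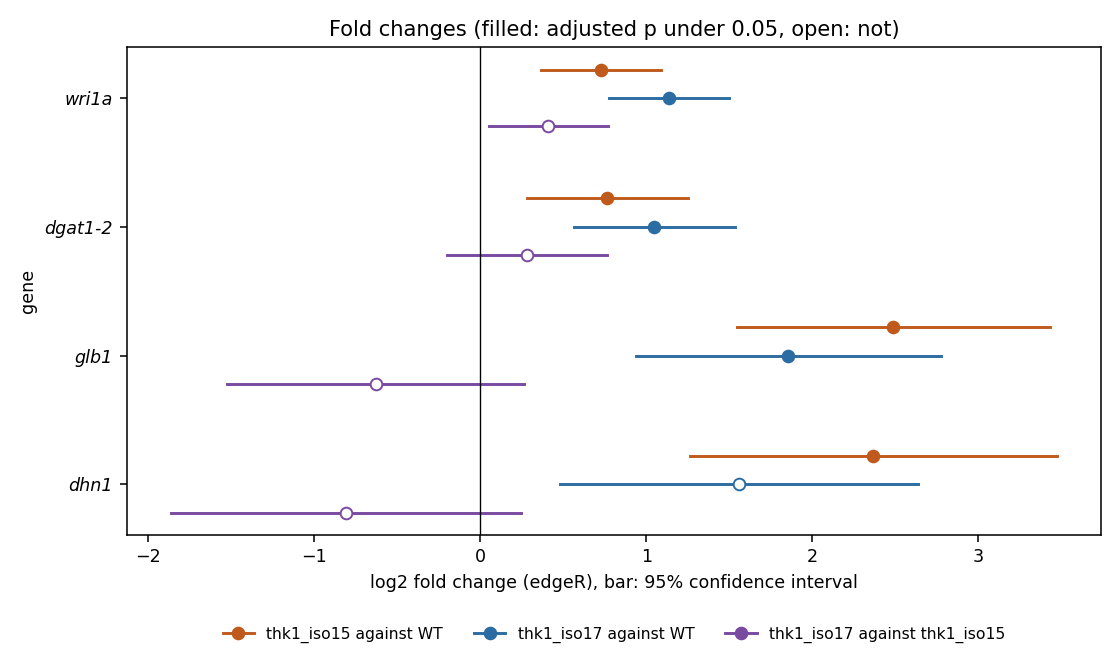
Fold changes of the 4 tested genes on the log2 scale (horizontal axis) for each allele against WT and for thk1_iso17 against thk1_iso15, from edgeR, with 95% confidence intervals as bars. Filled points passed at an adjusted p under 0.05; all intervals against WT lie above 0, and no comparison between the alleles passed.

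With both alleles combined, each of the 4 tested members rose, where 11% of all tested genes were called higher. The log2 fold change was 0.93 for wri1a (SE 0.15, edgeR adjusted p = 0.00242) and 0.91 for dgat1-2 (SE 0.20, edgeR adjusted p = 0.0101). It was 2.17 for glb1 (SE 0.39, edgeR adjusted p = 0.00449) and 1.96 for dhn1 (SE 0.46, edgeR adjusted p = 0.0136). The first 3 calls held without any single library, and that of dhn1 was lost without WT replicate 1 (log2 fold change 1.72, edgeR adjusted p = 0.0686) or WT replicate 3 (1.77, 0.0679).

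The size of these changes was set beside that of all genes. The median log2 fold change over the 23529 tested genes was 0.0232 for both alleles, and the highest 5% began at 1.76. Of all tested genes, 3.29% had a higher log2 fold change than glb1 and 4.07% a higher one than dhn1. For wri1a and dgat1-2 these shares were 12.7% and 13.1%. Per allele, the shares for glb1 were 2.60% in thk1_iso15 and 4.77% in thk1_iso17, and those for dhn1 were 2.90% and 6.52%. For both alleles combined and 1 library left out, the share reached 5.73% for glb1, without WT replicate 1, and 6.47% for dhn1, without thk1_iso15 replicate 1. In thk1_iso17 alone it reached 8.15% for glb1 and 9.56% for dhn1, both without WT replicate 1. In thk1_iso15 alone it reached 4.59% for glb1, without WT replicate 1, and 6.69% for dhn1, without thk1_iso15 replicate 1.

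**Figure D3:**
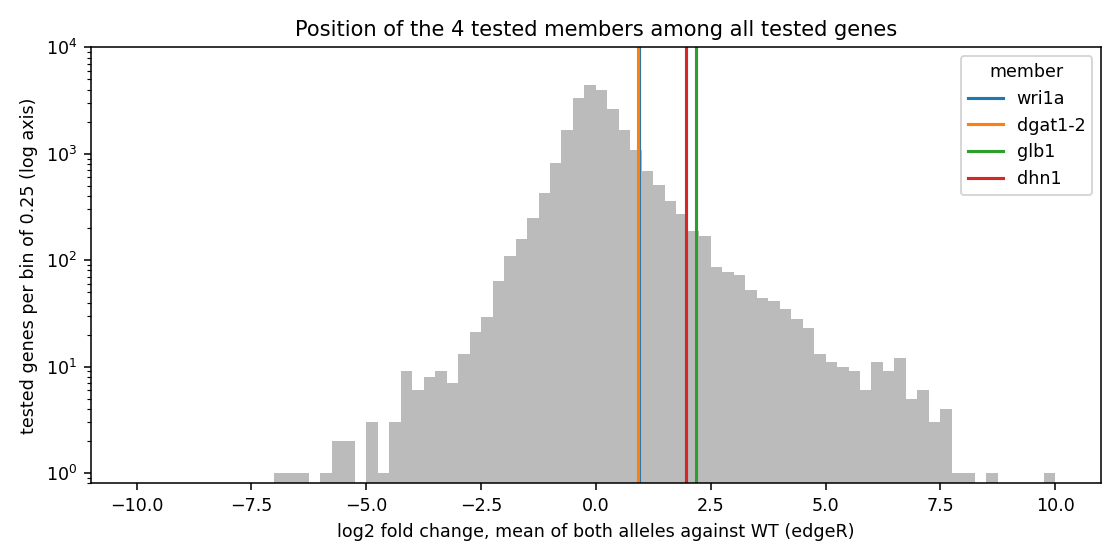
Distribution of the log2 fold change of both alleles against WT (horizontal axis) over 23529 tested genes, with the number of genes per bin on a log axis. Vertical lines mark wri1a and dgat1-2, which nearly coincide at 0.93 and 0.91, dhn1 at 1.96 and glb1 at 2.17.

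The alleles were then compared with each other. None of the 4 tested members differed between thk1_iso17 and thk1_iso15 by the edgeR test, where 0.111% of all tested genes were called, and DESeq2 and voom also called none. At an unadjusted p under 0.05 there was 1, wri1a, where 6.88% of all tested genes lay under that limit. Its level was 1.33-fold as high in thk1_iso17 as in thk1_iso15 (95% interval 1.04 to 1.70, edgeR adjusted p = 0.667), and the groups overlapped. The ratio was 1.22 for dgat1-2 (0.872 to 1.70, edgeR adjusted p = 0.849). It was 0.646 for glb1 (0.347 to 1.20, edgeR adjusted p = 0.815) and 0.570 for dhn1 (0.275 to 1.18, edgeR adjusted p = 0.793).

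The order of the group means therefore differed between the genes, without a difference between alleles that passed. For wri1a and dgat1-2 the order was WT, thk1_iso15, thk1_iso17, and for glb1 and dhn1 it was WT, thk1_iso17, thk1_iso15. The intervals leave room for a difference between alleles of up to 1.70-fold in the oil genes, and for a thk1_iso17 level as low as 0.347 of that in thk1_iso15 for glb1. For dhn1 the order between alleles rested on 1 library. Without thk1_iso15 replicate 1 its log2 difference, thk1_iso17 minus thk1_iso15, moved from -0.81 to 0.0361.

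**Figure D4:**
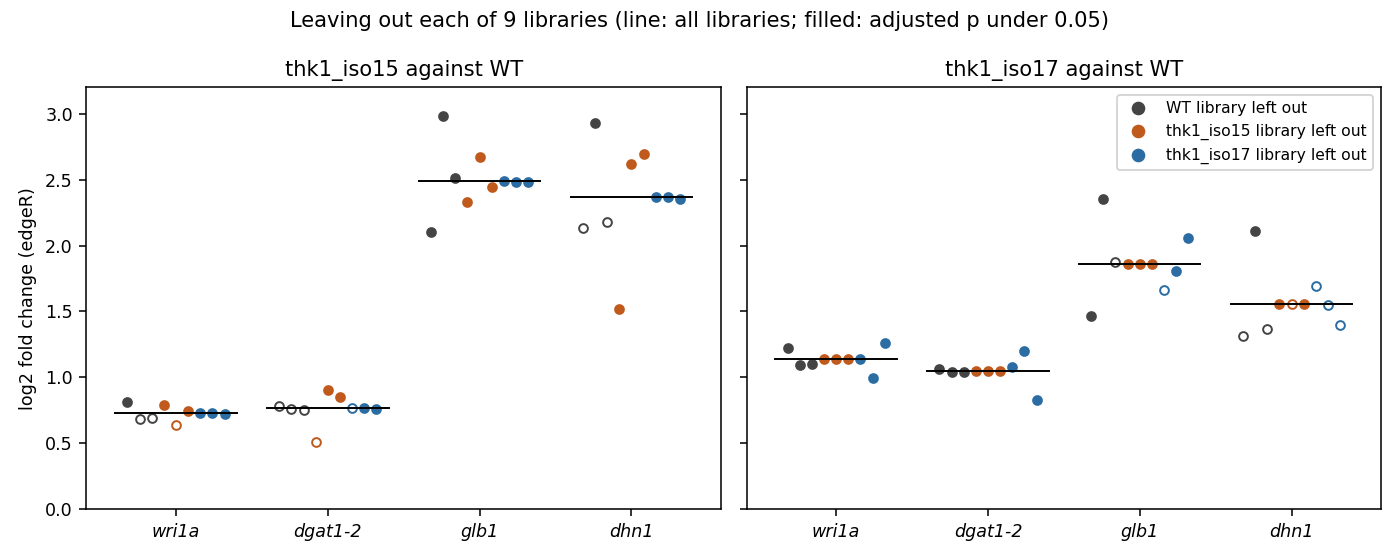
Log2 fold change against WT (vertical axis) of the 4 tested genes when each of the 9 libraries was left out in turn, for thk1_iso15 (left) and thk1_iso17 (right). Lines give the value with all libraries, and open points an adjusted p of 0.05 or more; all values stay above 0, and dhn1 in thk1_iso15 falls furthest, from 2.37 to 1.52.

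Single libraries did not order the members alike. Replicate 1 of thk1_iso15 was the highest of its group for dgat1-2, glb1 and dhn1, and the lowest for wri1a. Replicate 3 of thk1_iso17 was the highest of its group for dgat1-2 and dhn1, and the lowest for glb1 and wri1a. Replicate 2 of thk1_iso17 was the highest for wri1a and the lowest for dgat1-2. In WT, replicate 2 was the highest and replicate 1 the lowest for both glb1 and dhn1, while replicate 1 was the highest for wri1a and dgat1-2.

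Ratios of counts between members within a library do not depend on scaling, and are given without a test. Counts of glb1 per count of dhn1 were 7.27 to 16.5 in WT, 8.10 to 27.3 in thk1_iso15 and 8.27 to 22.1 in thk1_iso17. These 3 ranges overlapped. Counts of glb1 per count of dgat1-2 were 3.78 to 15.8 in WT and 29.7 to 39.3 in thk1_iso15, with no overlap. In thk1_iso17 they were 9.37 to 23.8, which overlapped with WT through replicate 3 alone. Counts of dhn1 per count of dgat1-2 were 0.520 to 1.40 in WT, 1.44 to 3.67 in thk1_iso15 and 1.02 to 1.56 in thk1_iso17. How many pairs of genes separate in this way was not counted. Counts of dgat1-2 per count of wri1a were 0.733 to 0.846 in WT, 0.586 to 1.20 in thk1_iso15 and 0.488 to 1.17 in thk1_iso17, so the WT range lay within that of each mutant.

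The tested genes with the most similar pattern were found by Pearson r of log2 CPM over the 9 libraries, as a description. The points share the shift between WT and mutants, so many genes score high. For glb1, 272 of 23528 other genes had r over 0.9, and for wri1a, dgat1-2 and dhn1 these were 265, 209 and 195. The most similar member to glb1 was dhn1, with r = 0.868, yet 567 other genes were closer to glb1 than that. Between wri1a and dgat1-2, r was 0.682, and 3267 genes were closer to wri1a.

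The closest gene to each tested member was higher in the mutants than in WT. That follows largely from choosing genes by likeness to members that were themselves higher, so no test is given for them. As the files pair no identifier with a name, at most 2 that were higher are identified, those with the highest r. The closest gene to dgat1-2 had r = 0.985, and the closest to dhn1 had r = 0.978. Zm00001d033225 was closest to wri1a (r = 0.985). It stood at 19.2, 15.5 and 15.1 CPM in WT, 25.3, 27.8 and 24.7 in thk1_iso15 and 34.9, 34.4 and 27.3 in thk1_iso17. Zm00001d020028 was closest to glb1 (r = 0.989) but had few reads. It had 0, 9 and 3 counts in WT, 16, 20 and 23 in thk1_iso15 and 42, 15 and 15 in thk1_iso17.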

How the data were processed

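The files hold raw counts of reads for each gene identifier, made by the authors with HISAT2 2.1.0, SAMtools 1.9, StringTie 1.3.6 and HTSeq 0.11.1 on B73 RefGen_v4, per the submitters' processing notes. The sources used here give neither the settings of these tools nor the annotation nor whether strand was read, so reads of overlapping genes or near-identical copies remain uncertain. In each library 5 summary lines were kept out. Genes held 52.9% to 66.5% of all entries.

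The test was run with edgeR 4.0.16 under R 4.3.3, using filterByExpr with the 3 groups, TMM factors and 1 quasi-likelihood fit over all 9 libraries, with p-values adjusted by Benjamini-Hochberg over 23529 genes. Standard errors were derived as the log2 fold change over the root of its F statistic. DESeq2 1.42.0 and voom in limma 3.58.1 were among the alternatives. The pipeline was tested on simulated data. Replicates of a group differed by more than sampling noise (chi-square per degree of freedom at least 38.2). All 5 members were named whatever their values. They and the lists were chosen with earlier results of these data known. The fixed lists of other oil, late embryogenesis and marker genes had 0 members tied to an identifier, so no list was counted. No sequence is shown.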

Additional observations from a re-analysis of the deposited data

How the results depend on the processing

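Each tested member was recomputed under RLE, upper quartile and restricted TMM factors (without the 100 most abundant genes), DESeq2, voom, 2 other filters on low counts, fits of only the groups compared, a replicate block, and without each library. All 212 such values against WT were positive. Scaling moved the median of all genes by under 0.1 on the log2 scale. Outside the omissions of a library, the calls that changed were dgat1-2 in thk1_iso15 by voom (log2 fold change 0.71, adjusted p = 0.0693) and dhn1 in thk1_iso17, which passed with no filter (1.56, edgeR adjusted p = 0.0172) and with only its 2 groups (1.56, 0.0208).

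Without 1 library at a time, log2 fold changes in thk1_iso15 ranged from 0.64 to 0.81 for wri1a, 0.51 to 0.90 for dgat1-2, 2.101 to 2.99 for glb1 and 1.52 to 2.93 for dhn1. In thk1_iso17 they ranged from 1.47 to 2.35 for glb1 and from 1.31 to 2.11 for dhn1, and with both alleles from 1.54 to 2.52 for dhn1. Between the alleles dhn1 ran from -1.14 to 0.0361, the latter without thk1_iso15 replicate 1. The mean TMM-scaled CPM of lec1 over libraries ran from 0.0330 to 0.104 in thk1_iso15 and from 0.129 to 0.168 in thk1_iso17. The number of members called in thk1_iso15 ran from 1 to 4. Over all genes the number called ran from 1440 to 4386 in thk1_iso15, 1176 to 3946 in thk1_iso17, 2464 to 5876 for both alleles and 21 to 72 between alleles. Between alleles DESeq2 called 197, the fit with no filter 75 and the fit of the 2 groups 17, against 26. The cause of these changes was not tested.

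The labels do not say that a replicate number marks a shared batch, and the libraries were not treated as pairs. Deviations from group means of same-numbered libraries had r between -0.113 and 0.240, over 0.1 in 3 of 9 pairs, against -0.233 to 0.117 and 2 of 18 pairs with different numbers. Not every library correlated best with its own number: thk1_iso15 replicate 1 had r = -0.113 with thk1_iso17 replicate 1 and 0.117 with replicate 3. With the replicate block no member's call changed. In thk1_iso15 the log2 fold changes were 0.73, 0.74, 2.56 and 2.29 for wri1a, dgat1-2, glb1 and dhn1, and 3971 genes were called. In thk1_iso17 they were 1.13, 1.03, 1.89 and 1.62, and 3761 genes were called. Depth limits lec1, which had at most 15 reads in a library.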
